A study of Homo sapiens with 12 samples.

Results

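The genes described here were LGALS1, LGALS3, LGALS8, LGALS9 and LGALS17A, which carry galectin symbols, and LGALS3BP, which encodes galectin-3 binding protein. They were taken from the count table by symbol, 6 of its 27685 genes, and all 6 passed the filter on low counts that left 15769 genes for testing. The 12 RNA-seq libraries came from U251, an established human glioblastoma cell line, at passages 14 to 18, with 3 libraries in each of 4 groups. Cells stably expressed either shINCA1, a short hairpin RNA against a long noncoding RNA named INCA1, or shCTRL, a control hairpin. Each line was either treated for 24 h with interferon gamma (IFNγ) or left untreated, so the groups were shINCA1 with IFNγ, shINCA1 untreated, shCTRL with IFNγ and shCTRL untreated. The labels tell of 1 line per hairpin, so the hairpin and other differences between the lines cannot be told apart. The targeted RNA itself was not analysed here, so no check of the hairpin labels by its level was made. Separate cultures are not named in the labels, and the p-values therefore cover no more than the spread between the sequenced samples, part or all of which may be technical.

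Galectins are small lectins that bind β-galactoside sugars on glycoproteins and glycolipids, mostly outside the cell, although they are made in the cytosol and leave it without a signal peptide. Galectin-1 (LGALS1) forms dimers and is abundant in glioblastoma, where it is known for roles in migration and immune suppression. Galectin-3 (LGALS3) joins a single sugar-binding domain to a tail that lets it form larger assemblies, and galectin-8 (LGALS8) and galectin-9 (LGALS9) carry a pair of different sugar-binding domains in 1 chain. Galectin-8 also marks damaged endosomes and lysosomes, where it recruits the autophagy receptor CALCOCO2, and galectin-9 is a ligand of immune receptors such as TIM-3. LGALS3BP is a secreted, heavily glycosylated protein that binds galectins and matrix proteins and is known as an interferon-inducible gene. LGALS17A is annotated as a long noncoding RNA in GENCODE and as a transcribed pseudogene in RefSeq, and it has no known role that could be stated here.

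The promoters of LGALS9 and LGALS3BP are shown because these were the protein-coding members with the largest changes under IFNγ, and because 1 motif was found in both. The sequences are from RefSeq on GRCh38.p14 and run from 250 bases before to 50 bases after the annotated start. Capitals mark a match to the interferon-stimulated response element, searched as GAAA, any 2 bases and GAAA again on both strands.
LGALS9, chr17:27630938-27631237, plus strand: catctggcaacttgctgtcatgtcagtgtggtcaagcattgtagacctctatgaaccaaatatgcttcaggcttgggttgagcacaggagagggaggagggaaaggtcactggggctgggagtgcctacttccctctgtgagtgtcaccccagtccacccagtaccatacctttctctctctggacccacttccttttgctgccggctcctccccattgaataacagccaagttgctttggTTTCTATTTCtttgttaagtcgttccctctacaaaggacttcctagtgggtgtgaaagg
LGALS3BP, chr17:78979874-78980173, minus strand: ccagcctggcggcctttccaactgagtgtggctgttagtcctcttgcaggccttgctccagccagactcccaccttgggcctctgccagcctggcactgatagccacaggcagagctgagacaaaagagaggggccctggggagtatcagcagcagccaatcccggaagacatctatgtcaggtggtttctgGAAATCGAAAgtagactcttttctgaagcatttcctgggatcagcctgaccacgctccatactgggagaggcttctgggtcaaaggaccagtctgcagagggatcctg
In LGALS9 the match lay on the opposite strand, beginning at base -9 before the transcript start and running onto its first base, and in LGALS3BP it lay on the gene's own strand beginning at base -58. Such a match was present in 1255 of all 35116 promoter windows (3.57%), and in 504 of the 16804 windows of tested genes (3.0%). A second motif, the gamma-activated site TTCNNNGAA, was in neither window and in 7.66% of all windows. RefSeq windows were matched for 4 of the 6 members, LGALS3 and LGALS8 being the others, and neither motif was found in the window of LGALS3 or in the 3 windows of LGALS8. A match of letters describes the sequence alone, and no binding was measured.

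LGALS9 has close copies on the same chromosome, which matter both for the motif and for the assignment of reads. The stretch around the LGALS9 match is shown beside the same stretch of LGALS9B and LGALS9C, with the 10 bases of the match, or those in the same place, in capitals.
LGALS9, chr17:27631159-27631208, plus strand: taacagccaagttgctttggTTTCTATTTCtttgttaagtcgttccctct
LGALS9B, chr17:20467526-20467575, minus strand: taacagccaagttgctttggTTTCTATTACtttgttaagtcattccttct
LGALS9C, chr17:18476748-18476797, plus strand: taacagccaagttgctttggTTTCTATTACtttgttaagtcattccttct
Both copies carried the substitution T9A, counted from 1 at the first capital with the LGALS9 base first, and neither held the motif. The LGALS9 window was identical to that of LGALS9B at 276 of 293 aligned bases (94.2%) and to that of LGALS9C at 271 of 286 (94.8%). Of the 1675 stretches of 50 bases in the LGALS9 canonical transcript, 356 (21.3%) also occurred in transcripts of LGALS9B, LGALS9C or LGALS9DP, so part of its reads could be shared. With an annotation entry that overlaps LGALS9 included, 550 stretches (32.8%) occurred in another gene. LGALS9B was listed at 0 to 7 counts per library and LGALS9C at 0 in all 12. No such stretch of LGALS1, LGALS3, LGALS3BP or LGALS8 occurred in another gene. For LGALS17A, 0 of 2513 stretches occurred at another locus, and 436 were shared only with 2 annotation entries that overlap it. Its relatives on chromosome 19, LGALS13, LGALS14, LGALS16 and CLC, were at 0 counts in every library. Only exact matches in GENCODE transcripts were searched, and the annotation used for counting is not given. Reads of LGALS17A may therefore still belong to related genes.

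The members differed widely in abundance. Counts scaled with TMM library size factors (CPM) were divided by the length of the canonical transcript in kilobases to compare genes. In shINCA1 cells with IFNγ, LGALS3BP was at 349 ± 11.7 and LGALS1 at 331 ± 10.03 CPM per kilobase (SD, n = 3 in every group), and these neighbours in the order overlapped between libraries. LGALS3 followed at 30.4 ± 0.710, LGALS8 at 10.7 ± 0.605, LGALS9 at 3.67 ± 0.552 and LGALS17A at 1.98 ± 0.273 CPM per kilobase. In untreated shINCA1 cells LGALS1 came first at 342 ± 4.10, before LGALS3BP at 230.4 ± 9.81, LGALS3 at 31.0 ± 2.18, LGALS8 at 9.80 ± 0.203 and LGALS9 at 0.757 ± 0.0384 CPM per kilobase. In shCTRL cells LGALS1 was first with and without IFNγ. In shCTRL cells with IFNγ the per-kilobase levels were 455 ± 3.21 for LGALS1, 354 ± 2.77 for LGALS3BP, 15.8 ± 1.31 for LGALS3, 8.42 ± 0.120 for LGALS8, 6.28 ± 0.435 for LGALS9 and 5.98 ± 0.0879 for LGALS17A, the last pair lying within their spread. Untreated shCTRL cells had 457 ± 11.3 for LGALS1, 226 ± 11.1 for LGALS3BP, 17.7 ± 1.95 for LGALS3, 7.41 ± 0.438 for LGALS8 and 1.74 ± 0.142 CPM per kilobase for LGALS9. LGALS17A was at or under the floor of 3 counts per library in both untreated groups. Apart from the pairs named as overlapping, each gene in these orders was above the next by more than the spread of either.

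**Figure D1:**
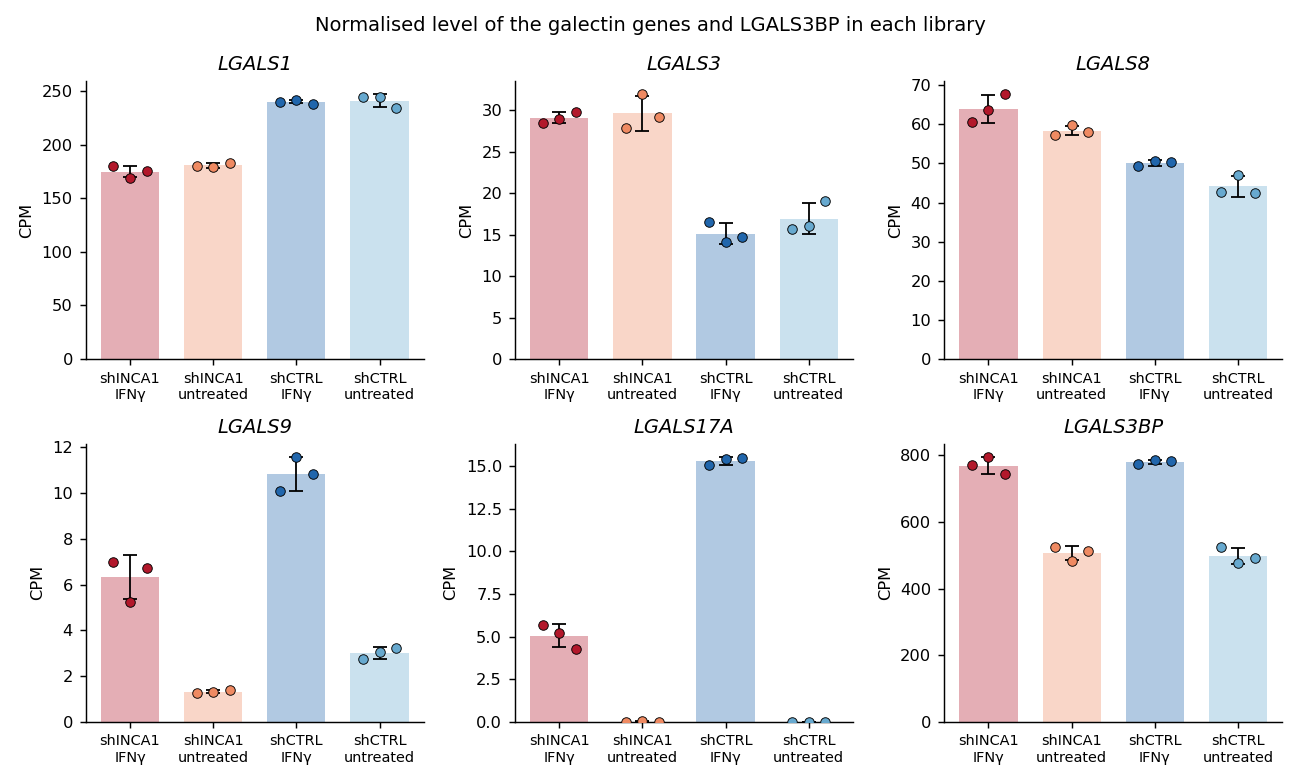
Level of each member in CPM in the 4 groups, with 1 point per library, bars from 0 to the group mean and error bars of 1 SD (n = 3). LGALS9, LGALS17A and LGALS3BP were higher with IFNγ in both lines, and the points of LGALS1, LGALS3 and LGALS8 separated by line.

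IFNγ raised LGALS9, LGALS3BP and LGALS17A in both lines and left LGALS1 and LGALS3 without a call. LGALS8 had a small rise in shCTRL cells and no call in shINCA1 cells. In shINCA1 cells 3 of the 6 members rose and 0 fell, where 9.08% of all tested genes changed, 6.13% upwards and 2.95% downwards. In shCTRL cells 4 rose and 0 fell, where 17.2% of all tested genes changed, 9.72% upwards and 7.51% downwards. LGALS17A, counted as a rise in both lines, passed the filter on low counts through its treated libraries alone. The members were also chosen with earlier results of these data known, so these counts are a description and no test of the set. The split of all tested genes depended on scaling: 967 rose and 465 fell in shINCA1 cells and 1532 rose and 1184 fell in shCTRL cells, against 815 and 733, and 1201 and 1970, with upper-quartile factors. The median log2 change of all tested genes was 0 in shINCA1 and -0.01 in shCTRL cells. Changes were tested with the edgeR quasi-likelihood test and Benjamini-Hochberg adjustment over all tested genes, and are log2 values ± SE. In bulk RNA, fewer cells of a kind and less RNA per cell cannot be told apart.

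LGALS9 had the largest change of the protein-coding members. Its level was 7.01, 5.24 and 6.74 CPM in shINCA1 cells with IFNγ, against 1.25, 1.28 and 1.38 CPM in untreated shINCA1 cells. In shCTRL cells it was 10.1, 11.6 and 10.8 CPM with IFNγ, against 2.75, 3.03 and 3.24 CPM untreated. No treated library overlapped an untreated one of either line, and the treated shINCA1 libraries stood above the untreated shCTRL libraries but below the treated ones. The log2 change was 2.28 ± 0.12 in shINCA1 cells (4.84-fold, 95% interval 2.005 to 2.55, adjusted p = 1.13e-07) and 1.85 ± 0.12 in shCTRL cells (3.61-fold, 1.60 to 2.10, adjusted p = 2.41e-07). By size of log2 change from the highest, LGALS9 was at place 195 of 15769 in shINCA1 and 299 in shCTRL cells. The difference between these responses was 0.43 ± 0.17 (95% interval 0.06 to 0.79) and did not pass the test (adjusted p = 0.333 with the edgeR test, and 0.0967 to 0.544 over the alternative settings).

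LGALS17A was found with IFNγ and was at or near 0 without it. Treated shINCA1 libraries held 325, 256 and 232 counts, or 5.66, 5.22 and 4.30 CPM, against 0, 2 and 0 counts in untreated shINCA1 libraries. Treated shCTRL libraries held 726, 985 and 931 counts, or 15.1, 15.4 and 15.5 CPM, against 0 in each untreated shCTRL library. Every treated library therefore stood clear of every untreated one, and every treated shINCA1 library was below every treated shCTRL library. The ratio of treated to untreated shINCA1 cells was 469, with an exact 95% interval of 129 to 3877 that covers counting error only (adjusted p = 1.04e-07). This ratio rests on 2 counts in 1 untreated library, under the floor, so its size is poorly known. In shCTRL cells the level was at least 278-fold higher with IFNγ, against the floor of 3 counts per library (adjusted p = 1.09e-08). No fold is given for the difference of responses, which did not pass the test (edgeR adjusted p = 0.355).

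LGALS3BP, the most abundant member in CPM, rose by about the same amount in both lines. It was at 771, 794 and 743 CPM in shINCA1 cells with IFNγ, against 526, 484 and 512 CPM in untreated shINCA1 cells. It was at 773, 785 and 783 CPM in shCTRL cells with IFNγ, against 524, 475.5 and 492 CPM in untreated shCTRL cells. The treated libraries were all above the untreated ones, and the lines overlapped within each treatment. The log2 change was 0.60 ± 0.04 in shINCA1 cells (1.52-fold, 95% interval 0.51 to 0.69, adjusted p = 6.04e-07) and 0.65 ± 0.04 in shCTRL cells (1.57-fold, 0.56 to 0.74, adjusted p = 1.69e-07). The responses differed by -0.05 ± 0.06 with a 95% interval of -0.17 to 0.07 (adjusted p = 0.833), which bounds a difference without showing that the responses are equal. LGALS3BP was read in all 12 libraries at 22410 counts or more.

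LGALS8 changed little with IFNγ. It was at 60.5, 63.7 and 67.7 CPM in shINCA1 cells with IFNγ, against 57.4, 59.7 and 58.1 CPM in untreated shINCA1 cells. In shCTRL cells it was at 49.3, 50.7 and 50.3 CPM with IFNγ, against 42.7, 47.1 and 42.5 CPM untreated. Treated and untreated libraries did not overlap in either line, as was the case for 24.9% of tested genes in shINCA1 and 33.4% in shCTRL cells. The log2 change of LGALS8 was 0.13 ± 0.05 in shINCA1 cells, where it did not pass the test (95% interval 0.02 to 0.24, adjusted p = 0.142), and 0.19 ± 0.05 in shCTRL cells, where it did (1.14-fold, 0.08 to 0.29, adjusted p = 0.0215). The call in shCTRL cells was lost with upper-quartile scaling (0.14, adjusted p = 0.0831), and without shCTRL untreated replicate 1 (adjusted p = 0.114) or 3 (0.0875), or shCTRL IFNγ replicate 1 (0.0620), 2 (0.0970) or 3 (0.0636), over a range of 0.00769 to 0.114 for all alternatives. The difference of the LGALS8 responses was -0.05 ± 0.07 (adjusted p = 0.863). An antisense gene, LGALS8-AS1, overlaps it, and no source used here states whether reads were counted by strand. LGALS8-AS1 stood at 0.757 ± 0.10 CPM in shINCA1 cells with IFNγ, 0.521 ± 0.257 in untreated shINCA1, 0.162 ± 0.0600 in shCTRL with IFNγ and 0.428 ± 0.0709 CPM in untreated shCTRL cells, far below LGALS8 in each group.

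LGALS1 and LGALS3 did not pass the test with IFNγ in either line. The log2 change of LGALS1 was -0.05 ± 0.03 in shINCA1 cells (95% interval -0.11 to 0.02, adjusted p = 0.439) and -0.01 ± 0.03 in shCTRL cells (-0.07 to 0.06, adjusted p = 0.935). For LGALS3 it was -0.03 ± 0.08 in shINCA1 cells (-0.21 to 0.15, adjusted p = 0.929) and -0.16 ± 0.08 in shCTRL cells (-0.35 to 0.02, adjusted p = 0.241). These intervals bound a change of LGALS1 more tightly than one of LGALS3, which had fewer counts. The differences of the responses were -0.04 ± 0.04 for LGALS1 (adjusted p = 0.805) and 0.14 ± 0.12 for LGALS3 (adjusted p = 0.762). With the edgeR test 0 of the 6 members passed in the difference of responses, where 1.71% of tested genes did, 0.615% upwards and 1.1% downwards. An unadjusted p under 0.05 was found for 2 members, LGALS9 and LGALS17A, and for 11.4% of tested genes.

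**Figure D2:**
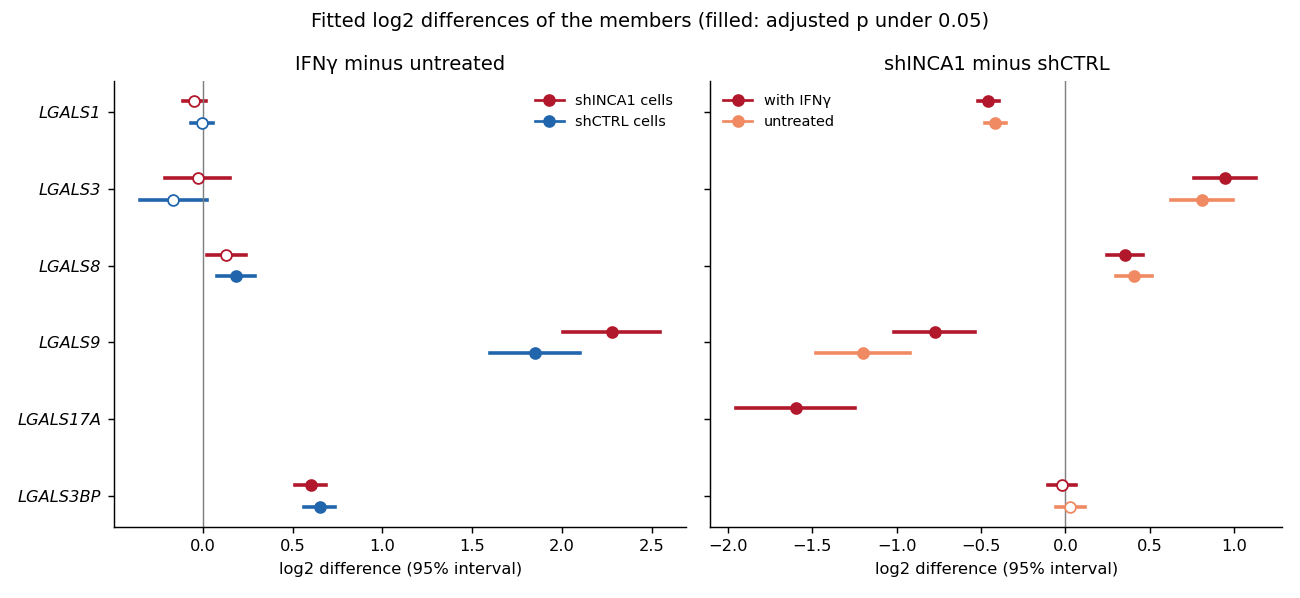
Fitted log2 differences of the members with 95% intervals, for IFNγ minus untreated in each line (left) and shINCA1 minus shCTRL cells with IFNγ and untreated (right), filled where the adjusted p was under 0.05. LGALS9 and LGALS3BP moved to the right with IFNγ in both lines, and LGALS17A has no fitted value where untreated libraries were at or near 0 counts.

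Between the lines the members went in both directions. In shINCA1 relative to shCTRL cells with IFNγ, LGALS3 and LGALS8 were higher and LGALS1, LGALS9 and LGALS17A lower, while untreated cells showed the same calls without LGALS17A. These 5 and 4 calls of 6 stand beside a background in which 58.9% of all tested genes with IFNγ and 56.9% untreated passed the test between the lines. Of all tested genes, 28.7% were higher and 30.2% lower in shINCA1 cells with IFNγ, and 27.4% were higher and 29.5% lower untreated. Libraries did not overlap for 5 members with IFNγ and 4 untreated, beside 66.5% and 62.8% of all tested genes. LGALS3BP did not pass the test in either comparison, with a log2 difference of -0.02 ± 0.04 with IFNγ (95% interval -0.11 to 0.06, adjusted p = 0.677) and 0.03 ± 0.04 untreated (-0.06 to 0.11, adjusted p = 0.548).

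LGALS1, the galectin with the highest level in both lines, was lower in shINCA1 cells. With IFNγ it was at 179.8, 169 and 176 CPM in shINCA1 cells, against 240.4, 242 and 239 CPM in shCTRL cells. Untreated, it was at 179.96, 179 and 183 CPM in shINCA1 cells, against 244, 245 and 234 CPM in shCTRL cells. The lines did not overlap under either condition, and libraries of 1 line lay close together whatever the treatment. The log2 difference was -0.46 ± 0.03 with IFNγ (0.728-fold, 95% interval -0.52 to -0.39, adjusted p = 5.73e-08) and -0.42 ± 0.03 untreated (0.749-fold, -0.48 to -0.35, adjusted p = 1.35e-07).

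LGALS3 was higher in shINCA1 cells. With IFNγ it was at 28.5, 29.0 and 29.8 CPM in shINCA1 cells, against 16.5, 14.1 and 14.7 CPM in shCTRL cells. Untreated, it was at 27.8, 31.9 and 29.2 CPM in shINCA1 cells, against 15.7, 16.0 and 19.1 CPM in shCTRL cells. The lowest shINCA1 library was well above the highest shCTRL library. The log2 difference was 0.95 ± 0.08 with IFNγ (1.93-fold, 95% interval 0.76 to 1.13, adjusted p = 1.33e-06) and 0.81 ± 0.08 untreated (1.75-fold, 0.63 to 0.99, adjusted p = 5.15e-06). LGALS8, whose libraries are given above, was also higher in shINCA1 cells, by 0.35 ± 0.05 with IFNγ (1.28-fold, 0.24 to 0.46, adjusted p = 6.03e-05) and by 0.40 ± 0.05 untreated (1.32-fold, 0.30 to 0.51, adjusted p = 1.93e-05).

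LGALS9 and LGALS17A, the members with the largest IFNγ responses, were lower in shINCA1 cells. For LGALS9 the log2 difference was -0.77 ± 0.11 with IFNγ (0.585-fold, 95% interval -1.02 to -0.53, adjusted p = 7.07e-05) and -1.20 ± 0.13 untreated (0.435-fold, -1.48 to -0.92, adjusted p = 5.97e-06). LGALS9 was thus lower before IFNγ was given, on 72 to 93 counts per untreated shINCA1 library and 143 to 180 per untreated shCTRL library. For LGALS17A the difference with IFNγ was -1.60 ± 0.16 (0.330-fold, -1.95 to -1.24, adjusted p = 1.16e-05), and untreated both lines were at or under the floor, so no fold is given. The interferon check genes, a list of 8 that includes the transcription factor gene IRF1, all rose in both lines, where 6.13% of all tested genes rose in shINCA1 and 9.72% in shCTRL cells. Of these 8, 8 with IFNγ and 6 untreated were lower in shINCA1 cells, beside 30.2% and 29.5% of all tested genes.

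The genes around each member were compared as well, to show how far its surroundings moved with it. Each member was set beside the 20 tested genes on either side of it, with order and chromosome from GENCODE on GRCh38. Around LGALS3 on chromosome 14 the 40 neighbours had a median log2 difference of 0.44 with IFNγ and 0.45 untreated in shINCA1 relative to shCTRL cells, with 30 higher and 3 lower with IFNγ, and 31 higher and 4 lower untreated. After this median was subtracted, the difference of LGALS3 was 0.51 with IFNγ and 0.37 untreated. LGALS3 was above 36 of its 40 neighbours with IFNγ and above 31 untreated. Around LGALS17A on chromosome 19 the median was -0.30 with IFNγ, with 25 of 40 neighbours lower and 2 higher, and the difference of LGALS17A less that median was -1.30.

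The other members stood in less shifted surroundings. Neighbour medians with IFNγ and untreated were 0.12 and 0.08 for LGALS1 on chromosome 22, 0.04 and 0.08 for LGALS8 on chromosome 1, -0.01 and 0.04 for LGALS9 on chromosome 17, and 0.16 and 0.15 for LGALS3BP, also on chromosome 17. Less these medians, LGALS1 was at -0.58 and -0.50, LGALS8 at 0.31 and 0.32, LGALS9 at -0.76 and -1.24, and LGALS3BP at -0.18 and -0.12. The direction of LGALS3BP untreated thus depended on this step, and it had no call. Whether the lines differ in DNA copy number at these places was not tested.

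**Figure D3:**
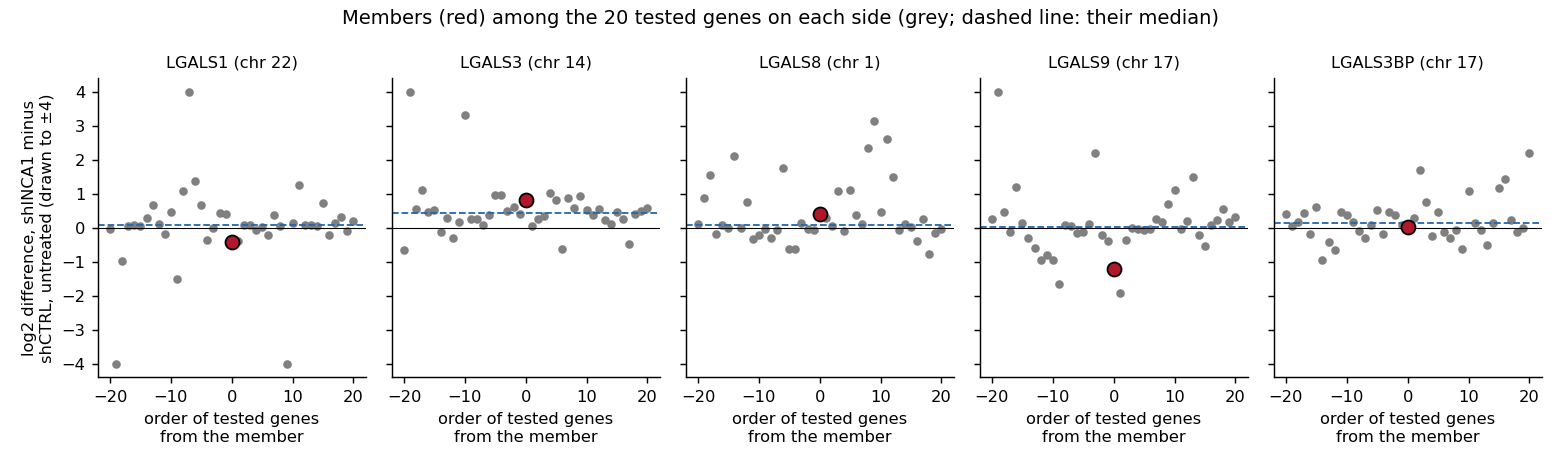
Log2 difference, shINCA1 minus shCTRL in untreated cells, for 5 members (red) and their 40 tested neighbours (grey), by order of tested genes from the member, with the neighbour median as a dashed line and values beyond the axis drawn at its end. The neighbours of LGALS3 lie mostly above 0, with a median of 0.45, and LGALS9 lies below nearly all of its own.

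Among 13 other galectin genes and relatives in the table, 1 was tested. This was LGALSL, which encodes a galectin-related protein without the sugar-binding activity of the family. It was at 26.4, 23.5 and 25.8 CPM in shINCA1 cells with IFNγ, 28.3, 32.0 and 29.4 CPM in untreated shINCA1 cells, 13.5, 14.3 and 12.6 CPM in shCTRL cells with IFNγ, and 16.2, 16.1 and 18.1 CPM in untreated shCTRL cells. Like LGALS3, it was higher in shINCA1 cells, by 0.91 ± 0.07 with IFNγ (adjusted p = 5.23e-07) and 0.83 ± 0.07 untreated (1.78-fold, adjusted p = 1.03e-06). Its log2 change with IFNγ of -0.25 ± 0.07 in shINCA1 cells did not pass the test (adjusted p = 0.0543), while it fell by 0.32 on the log2 scale in shCTRL cells (SE 0.07, adjusted p = 0.00981). LGALS2, LGALS4, LGALS12 and GRIFIN were at 0 counts in every library, and LGALS7 and LGALS7B reached 2 counts in 1.

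Galectins bind sugar chains whose branching and capping are set by glycosyltransferases. A list of 17 glycan synthesis genes was followed, and 16 of them were tested. With IFNγ 1 rose and 1 fell in shINCA1 cells, and 3 rose and 2 fell in shCTRL cells, with list medians of -0.02 and 0.08 beside 0 and -0.01 for all tested genes. The shares over all tested genes were 6.13% upwards and 2.95% downwards in shINCA1 cells, and 9.72% and 7.51% in shCTRL cells. ST3GAL1, which caps O-linked chains with sialic acid, fell by 0.42 on the log2 scale in shINCA1 cells (SE 0.06, adjusted p = 3.45e-04) and by 0.68 in shCTRL cells (SE 0.06, adjusted p = 4.01e-06). FUT8, the core fucosyltransferase, rose by 0.20 ± 0.03 in shINCA1 cells (adjusted p = 0.00253) and by 0.21 ± 0.04 in shCTRL cells (adjusted p = 0.00121). Between the lines, 28.7% of all tested genes were higher and 30.2% lower in shINCA1 cells with IFNγ, and 27.4% and 29.5% untreated. Of the list, 9 were higher and 3 lower in shINCA1 cells with IFNγ, and 10 higher and 4 lower untreated, with medians of 0.14 and 0.29. Those higher included ST3GAL1 (1.27 ± 0.06 with IFNγ, 1.01 ± 0.06 untreated), C1GALT1, which builds the core of O-linked chains (0.82 ± 0.05 and 0.94 ± 0.05), and MGAT5, which makes the branched N-linked chains that galectin-3 prefers (0.53 ± 0.03 and 0.55 ± 0.03). MGAT1 was among those lower, averaging 124 CPM in shINCA1 against 153 CPM in shCTRL cells with IFNγ, and 114 against 137 CPM untreated. In the difference of IFNγ responses 0 of the 16 passed, where 1.71% of all tested genes did.

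Of 26 binding partners, 20 were tested. The immune receptor genes HAVCR2, which encodes TIM-3, CD40, PDCD1, PTPRC, SPN and CD7 did not pass the filter on low counts. With IFNγ 5 rose and 2 fell in each line, beside list medians of -0.00 in shINCA1 and 0.02 in shCTRL cells. Among all tested genes 6.13% rose and 2.95% fell in shINCA1 cells, and 9.72% rose and 7.51% fell in shCTRL cells. LAMB1, a laminin chain, rose by 0.18 ± 0.02 in shINCA1 cells (adjusted p = 9.84e-05) and by 0.27 ± 0.02 in shCTRL cells (adjusted p = 1.48e-06). MUC1, a cell-surface mucin, rose by 1.18 ± 0.18 in shINCA1 cells (adjusted p = 8.23e-04) and by 0.82 ± 0.17 in shCTRL cells (adjusted p = 0.00490). CD44, the hyaluronan receptor, fell by 0.10 on the log2 scale in shINCA1 cells (SE 0.02, adjusted p = 0.0110), a call lost with only the groups compared (0.0540) and without shINCA1 untreated replicate 2 (0.0520) or 3 (0.0511), and by 0.21 in shCTRL cells (SE 0.02, adjusted p = 2.89e-05). Between the lines 6 were higher and 10 lower in shINCA1 cells with IFNγ, and 6 higher and 9 lower untreated, with medians of -0.16 and -0.20. The shares over all tested genes were 28.7% higher and 30.2% lower with IFNγ, and 27.4% higher and 29.5% lower untreated. FN1, fibronectin, was lower by -2.41 ± 0.05 with IFNγ and -2.24 ± 0.05 untreated, and ITGAV, an integrin chain, by -1.24 ± 0.06 and -1.21 ± 0.06. ITGA3, another integrin chain, was higher by 0.73 ± 0.03 and 0.69 ± 0.03.

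The 8 genes listed for the response to damaged vesicles were all tested. They held the 2 list genes outside the interferon check list whose IFNγ responses differed between the lines. With IFNγ 2 rose and 1 fell in shINCA1 cells, where 6.13% of all tested genes rose and 2.95% fell. In shCTRL cells 2 rose and 2 fell, where 9.72% of all tested genes rose and 7.51% fell. CALCOCO2, also called NDP52, averaged 73.3 ± 0.760 CPM in shINCA1 cells with IFNγ and 50.9 ± 1.18 CPM in untreated shINCA1 cells, a log2 change of 0.53 ± 0.04 (adjusted p = 1.27e-06). In shCTRL cells it averaged 131 ± 2.15 CPM with IFNγ and 68.9 ± 3.51 CPM untreated, a change of 0.93 ± 0.04 (adjusted p = 3.96e-09). These responses differed by -0.40 ± 0.05 (adjusted p = 0.00182). OPTN, optineurin, another autophagy receptor, averaged 39.96 ± 0.913 CPM in shINCA1 cells with IFNγ and 21.5 ± 0.918 CPM in untreated shINCA1 cells, a change of 0.90 ± 0.05 (adjusted p = 1.63e-07). In shCTRL cells it averaged 63.2 ± 2.19 CPM with IFNγ and 27.1 ± 1.61 CPM untreated, a change of 1.22 ± 0.05 (adjusted p = 5.57e-09).

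The difference of the OPTN responses was -0.33 ± 0.07 (adjusted p = 0.0442), and this call held in 7 of 20 alternatives: over them the adjusted p ran from 0.00208 to 0.135, and it was over 0.05 without any 1 library other than shCTRL untreated replicate 2. TRIM16, which binds galectin-3 at damaged lysosomes, fell by 0.28 on the log2 scale in shINCA1 cells (SE 0.03, adjusted p = 1.37e-04) and by 0.29 in shCTRL cells (SE 0.03, adjusted p = 4.48e-05). Between the lines 7 of the 8 were lower and 0 higher in shINCA1 cells, both with IFNγ and untreated, where 30.2% and 29.5% of all tested genes were lower. The list medians were -0.58 and -0.39, beside about 0 for all tested genes. LGALS8 and LGALS3 themselves were higher in the same cells.

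**Figure D4:**
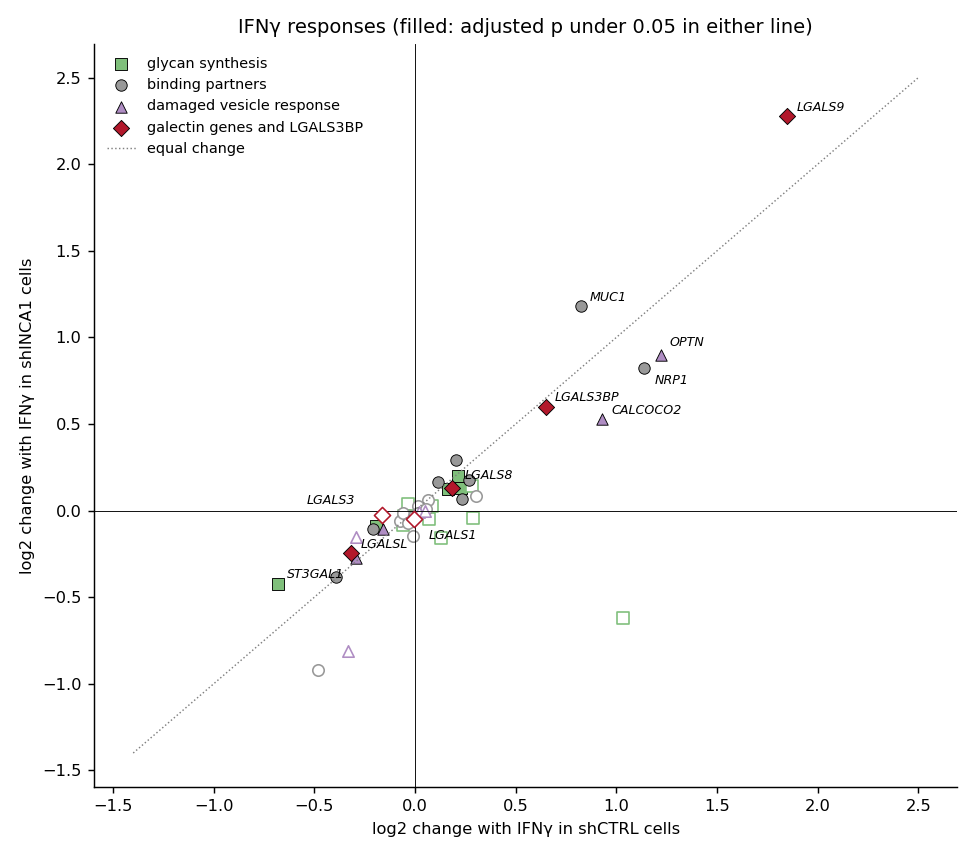
Log2 change with IFNγ in shINCA1 cells (vertical axis) against that in shCTRL cells (horizontal axis) for the galectin genes with LGALS3BP and for the 3 lists of glycan synthesis, binding partner and damaged vesicle genes. LGALS9 lies above the dotted line of equal change and CALCOCO2 and OPTN below it. LGALS17A has no fitted change and is left out.

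Over the 12 libraries each member was correlated, on log2 CPM, with the 12968 other tested genes that averaged at least 1 CPM, as a description only, since the libraries share line and treatment. LGALS9 was most like BTN3A1 (r = 0.995), SP140L (0.993) and YWHAG (0.993). BTN3A1 averaged 17.5 CPM in shINCA1 cells with IFNγ, 1.93 in untreated shINCA1, 39.2 in shCTRL with IFNγ and 6.19 CPM in untreated shCTRL cells, the same order of groups as LGALS9. LGALS17A was most like IDO1 and IFI35 (both 0.998) and GBP4 (0.997), of which IDO1 and GBP4 were also at 0 without IFNγ in both lines. LGALS3BP was most like PSMB10 and HELZ2 (both 0.995) and ZC3H7B (0.994).

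The remaining members had their nearest patterns among genes that separated the lines. LGALS1 was most like AFAP1L2 and CCDC80 (both 0.996) and MAPK14 (0.995). CCDC80 averaged 6.72 CPM in shINCA1 cells with IFNγ, 7.398 in untreated shINCA1, 28.4 in shCTRL with IFNγ and 28.6 CPM in untreated shCTRL cells. LGALS3 was most like GOLGA5 (0.994), TRIP11 (0.992) and AP1S1 (0.991), and LGALS8 most like ZNF655 (0.982), LRRC8B (0.981) and PIGG (0.981).

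Library totals were 46525032 to 66242859 estimated counts, with 16724 to 17216 genes above 0. The 8 glioma markers were all detected, and their summed level was 3068 to 3122 CPM in shINCA1 with IFNγ, 3069 to 3107 in untreated shINCA1, 3502 to 3613 in shCTRL with IFNγ and 3608 to 3721 CPM in untreated shCTRL libraries. The 8 immune cell markers summed to 1.76 to 2.53, 2.30 to 2.56, 0.581 to 1.47 and 1.14 to 1.58 CPM in the same order of groups, with AIF1 and CD3E among those at 0 in all libraries. The glioma sum was mostly VIM and CD44, while GFAP and S100B averaged 2.46 CPM or less in every group. Glioma markers went both ways between the lines. With IFNγ, NES was at 28.9 CPM in shINCA1 against 116 CPM in shCTRL cells, and CD44 at 822 against 568 CPM. Epithelial markers, 5 genes that include keratins, summed to 267 to 269 CPM in shINCA1 with IFNγ and 239.8 to 262 CPM in untreated shINCA1, against 89.8 to 94.6 CPM in shCTRL with IFNγ and 93.3 to 96.4 CPM in untreated shCTRL libraries. Nearly all of this was KRT18, at 262 and 247 CPM in shINCA1 and 88.0 and 92.0 CPM in shCTRL cells with IFNγ and untreated. KRT8 was also higher in shINCA1 cells, at 5.79 against 3.30 CPM with IFNγ. KRT19, EPCAM and CDH1 averaged 0.286 CPM or less in every group. Fibroblast markers, also 5, ran the other way, at 23.5 to 27.1 and 22.4 to 27.4 CPM in shINCA1 against 71.5 to 74.5 and 72.1 to 77.5 CPM in shCTRL libraries with IFNγ and untreated. In shCTRL cells this sum was carried mainly by COL1A2, which was at 0 in shINCA1 cells. In shINCA1 cells the sum was mostly COL1A1, which averaged 18.0 CPM with IFNγ and 18.4 CPM untreated. COL1A1 averaged 22.8 and 27.9 CPM in shCTRL cells, and LUM was also lower in shINCA1 than in shCTRL cells. PDGFRB was higher in shINCA1 cells, by 0.32 ± 0.10 with IFNγ and 0.54 ± 0.10 untreated on the log2 scale. Endothelial markers, 5 genes, were at 15.1 to 17.4 and 9.65 to 11.4 CPM in shINCA1 and 9.39 to 10.3 and 7.09 to 7.87 CPM in shCTRL libraries with IFNγ and untreated. The endothelial sum was also higher with IFNγ within each line, but it was carried mainly by KDR. VWF averaged lower with IFNγ, at 0.727 against 1.74 CPM in shINCA1 cells and 0.694 against 0.918 CPM in shCTRL cells. Of the 3 tested endothelial markers, 1 rose and 1 fell with IFNγ in shINCA1 cells, and 1 rose and 0 fell in shCTRL cells. The part of these levels in the results was not tested.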

How the data were processed

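Poly(A) RNA of 12 U251 samples was sequenced with a stranded kit. The tools FastQC, Trimmomatic, HISAT2 and StringTie and the build hg19 are listed per the submitters' processing notes. Not given in the sources used here are versions, the counting step, the annotation and whether reads were counted by strand. The table deposited by the authors holds estimated counts per gene symbol, whole numbers that are not scaled between samples. Low values pile up at 3 (5790 times) and 6 (4120 times), against 2186 at 2 and 1317 at 4, so 1 fragment may often be worth about 3 units and exact intervals are too narrow. These exact intervals and the floors cover counting error only. The intervals of fitted log2 changes come from the quasi-likelihood fit and also include the spread between libraries.

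Counts were fitted with edgeR 4.0.16 in R 4.3.3: filterByExpr (15769 genes, 99.986% of counts), TMM factors, all 12 samples in 1 fit with 1 coefficient per group, two-sided quasi-likelihood tests and Benjamini-Hochberg adjustment over all tested genes within each of 5 comparisons, with a threshold of 0.05. The common biological coefficient of variation was 10.6%. The procedure was tested on simulated counts with known fold changes, which did not carry the pile-up of low values described above. Standard errors are the log2 change divided by the square root of F. A group with 9 counts or fewer gets no fitted fold: a bound against the floor of 3 counts per library is given where it was at 0, and otherwise a ratio with an exact 95% interval. Floors were 0.0561 CPM in shINCA1 with IFNγ, 0.0487 in untreated shINCA1, 0.0523 in shCTRL with IFNγ and 0.0552 CPM in untreated shCTRL cells. GENCODE v44 on GRCh38 gave chromosomes, gene order and transcript lengths, and RefSeq GRCh38.p14 the promoters. No coordinates of the hg19 counts are given.

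The members and the gene lists were chosen with earlier results of these data known. The text names the members, the 3 genes most correlated with each, and up to 4 genes of a list by p in a comparison. LGALS8-AS1, LGALS9B, LGALS9C, LGALS9DP and IRF1, and the list genes at low counts, are named beside them for their bearing on a member or a list. Values of some listed genes are not reported here. Alternatives were DESeq2 size factors, upper-quartile factors, no filter, a minimum of 5 CPM in 3 samples, limma-voom (limma 3.58.1), a Wald test with DESeq2 1.42.0, fits of only the groups compared, a replicate block, each of the 12 libraries left out, counts divided by 3, and, between the lines, the neighbour median subtracted. Those planned for normalized values do not apply to counts and were left out.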

Additional observations from a re-analysis of the deposited data

How the results depend on the processing

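The counts of members called in each direction stayed within 1.5 times of the reported ones under every alternative run. LGALS8 with IFNγ in shCTRL cells was the 1 called member that lost its call in any alternative. In the alternatives as run, members reversed 10 times, each time where no call had been made. Left-out libraries moved these values from -0.027 to 0.0021 for LGALS1 with IFNγ in shCTRL cells, from -0.0764 to 0.0268 for LGALS3 with IFNγ in shINCA1 cells, from -0.0102 to 0.0709 for LGALS3BP between untreated lines, and the adjusted p from 0.107 to 1 for LGALS17A between untreated lines. LGALS1 with IFNγ in shCTRL cells turned to 0.0032 without the filter, 0.0016 with only the groups compared, 0.0021 without shINCA1 untreated replicate 2 and 0.0020 without shINCA1 IFNγ replicate 3. LGALS3 with IFNγ in shINCA1 cells turned to 0.0268 without shINCA1 untreated replicate 2. LGALS3BP between the lines turned untreated to -0.0102 without shCTRL untreated replicate 2, to -0.0024 without shINCA1 untreated replicate 1 and to -0.12 less its neighbours, and with IFNγ to 0.0169 with upper-quartile factors. Subtracting neighbours would also turn 2 uncalled IFNγ values, LGALS1 in shCTRL cells to 0.0231 and LGALS3 in shINCA1 cells to 0.0102. LGALS17A between untreated lines had an adjusted p of 1 without shINCA1 untreated replicate 2. The cause of these turns was not tested, except that the last left all untreated libraries at 0. Called list genes kept call and direction 2813 times over all alternatives and lost the call 72 times. Over all genes, IFNγ lowered 465 in shINCA1 cells, against 733 with upper-quartile factors, 718 with the DESeq2 Wald test and 281 without shINCA1 untreated replicate 3, and it lowered 1184 in shCTRL cells, against 1970 with upper-quartile factors. The difference of responses had 97 higher and 173 lower genes, against 192 and 317 with the DESeq2 Wald test, 57 higher without shINCA1 IFNγ replicate 3, and lower genes numbering 100 without shINCA1 IFNγ replicate 2, 95 without shINCA1 untreated replicate 3, 115 and 100 without shCTRL IFNγ replicate 1 or 2, and 112 without shCTRL untreated replicate 2. Deviations of same-numbered replicates from their group means had correlations of -0.0358 to 0.0464, and not every sample correlated best with its own number. No pairing by number was seen, but these values cannot tell whether same-numbered samples share more than a number. With the replicate block, IFNγ calls numbered 943 upwards and 432 downwards in shINCA1 cells, and 1509 upwards and 1125 downwards in shCTRL cells, and no member's call changed. The difference of OPTN responses had an adjusted p of 0.0865 with the block. Depth limits LGALS17A and LGALS9 most, which held the fewest counts.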
